A study of Mus musculus with 81 samples.

Results

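The genes described here are 37 interferon response genes, read in whole hearts of BXD mice fed chow or a high fat diet. They were listed by name and not by a cut on their values in these hearts, though earlier results of these data were known. Each was read by its single-symbol probe set with the highest mean over the 81 arrays, and 34 of the 37 could be measured that way, out of 22180 genes in all. Oas1a shares its probe set with Oas1g and Gbp2 shares its probe set with Gbp2b, so neither is reported, and Ifi44 has no named probe set. The members were divided into those whose level was set by strain and those that moved together from pool to pool, and their difference between the diets was then measured.

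The BXD mice are recombinant inbred strains bred from C57BL/6J and DBA/2J, so that each strain carries a fixed mixture of the genomes of both parents. All hearts came from male mice killed at 29 weeks of age after an overnight fast. The chow group held 42 arrays and the high fat group 39, with 1 array for each strain on each diet. Each array measured RNA pooled evenly from about 5 hearts, so the spread between animals inside a pool was not seen. The 39 strains with both diets, which were 37 BXD strains and both parents, entered the comparisons, while BXD60, BXD79 and BXD92a had only a chow array. All mice were unmodified inbred animals with no transgene named. The treatment text of the labels describes chow feeding for every array, so the high fat group rests on its title and diet label, and neither labels nor files state what that diet contained.

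Levels are given in array units. Each array had been scaled to a mean of 8.0 and a standard deviation of 2.0, and the log base behind the scale is not given, so differences are in these units and no fold changes are printed. The median gene lay at 8.18, and 26 of the 34 measured members lay above it. The other 8 were Isg15, Oas3, Dhx58, Mx1, Mx2, Bst2, Cxcl10 and Irgm1. Pairs of arrays correlated at r between 0.969 and 0.992 over all genes, each read by its chosen probe set. The mean level of 7 cardiomyocyte markers ranged from 13.6 to 14.9 on chow and from 13.8 to 14.8 on high fat, above the median gene on every array. The number of arrays limits the precision. In models with a strain term the p-values rest on the spread between the 2 pools of a strain after the diet means. In fits within 1 diet they rest on the spread between pools of different strains.

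Interferons are secreted by cells that sense foreign nucleic acid. Type I interferons act through a receptor whose signal brings a complex that holds STAT2 and IRF9 to a DNA element called ISRE in front of responding genes. Interferon gamma acts through another receptor and a different element called GAS. IRF7 is itself induced by interferon and drives further interferon and target gene transcription, which is why Irf7 served as the anchor for co-movement. A low tonic response is present in healthy tissue, the heart included.

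The promoters of several members carry close copies of the ISRE core, and 6 of them are shown because they belong to members that behaved differently in these hearts. The windows come from RefSeq on build GRCm38.p6 and read 5′ to 3′ in the direction of the gene, upstream of its start site. Capitals mark every match to GAAANNGAAA on either strand, with overlapping matches joined. Ifit1 lies at chr19:34640755-34640833 (plus strand), Isg15 at chr4:156200855-156200926 (minus strand), Ifit3 at chr19:34583343-34583436 (plus strand), Igtp at chr11:58199492-58199551 (plus strand), Irgm1 at chr11:48871421-48871480 (minus strand) and Gbp3 at chr3:142559969-142560034 (plus strand).
Ifit1: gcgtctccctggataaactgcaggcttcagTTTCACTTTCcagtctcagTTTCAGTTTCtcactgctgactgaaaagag
Isg15: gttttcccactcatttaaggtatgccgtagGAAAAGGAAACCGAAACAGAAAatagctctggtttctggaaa
Ifit3: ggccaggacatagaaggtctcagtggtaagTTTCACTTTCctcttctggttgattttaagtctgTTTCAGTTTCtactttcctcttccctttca
Igtp: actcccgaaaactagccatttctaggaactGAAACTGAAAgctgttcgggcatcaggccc
Irgm1: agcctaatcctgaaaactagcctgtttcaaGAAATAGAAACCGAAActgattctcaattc
Gbp3: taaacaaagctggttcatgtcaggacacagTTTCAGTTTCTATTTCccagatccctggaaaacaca

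Of the 34 measured members 25 had a RefSeq window of 300 bases, covering 250 bases before the start site and 50 after it. A match to GAAANNGAAA on either strand was present in 14 of these 25 windows (56.0%), against 3.49% of 27025 windows of the same length. These were the windows of Stat2, Isg15, Oas3, Ifit1, Ifit3, Ifih1, Ddx58, Eif2ak2, Rsad2, Bst2, Gbp3, Igtp, Irgm1 and Cxcl10. In Ifih1, Ddx58 and Eif2ak2 the match began after the start site, and in Isg15 there were 3 overlapping matches beginning 78, 72 and 66 bases upstream. The GAS-type motif TTCNNNGAA was found in 6 of the 25 windows, against 8.47% of all windows, and Igtp, Bst2 and Eif2ak2 held both motifs. Promoter windows of Parp14, Dhx58, Parp9, Usp18, Mx2, Rtp4, Oas2, Zbp1 and Mx1 were not analysed here. A match is a run of letters and was not tested as a binding site.

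Most members had a level that belonged to the strain. The limma F test over strains, adjusted over all genes by Benjamini-Hochberg, passed in 25 of the 34 members (73.5%), against 14.8% of all genes. The share of the spread that lay between strains was expressed as the intraclass correlation (ICC) of the chow and high fat pool of a strain after the diet means were removed. Its median was 0.53 over the members and 0.16 over all genes. Members with an adjusted p under 0.05 and an ICC of at least 0.5, called strain-fixed here, numbered 19 (55.9%), against 7.18% of all genes. In these bulk hearts a strain with fewer cells of a type and a strain with less RNA per cell cannot be told apart.

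Xaf1, an interferon-induced promoter of cell death, was the most firmly set by strain, with an ICC of 0.92 (adjusted p = 9.4e-17, limma F test). On chow its lowest, median and highest values over 42 strains were 9.39 in BXD75, 10.78 and 11.59 in BXD80, and on high fat over 39 strains 9.22 in C57BL/6J, 10.81 and 11.67 in BXD101. The strain means fell into a low and a high set. The widest gap in their order, 0.50 units, lay between 10.06 and 10.56, with 12 strains below it and 27 above. C57BL/6J (mean 9.33) was on the low side and DBA/2J (10.88) on the high side. The sides did not overlap on either diet: the highest low-side value was 10.10 on chow and 10.02 on high fat, and the lowest high-side value was 10.41 on chow and 10.53 on high fat. The side of a strain was read off these same values and was not tested against genotype.

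Ifih1, which encodes the RNA sensor MDA5, followed with an ICC of 0.75 (adjusted p = 1.3e-07). Its lowest, median and highest values were 9.19 in BXD65, 9.69 and 10.45 in BXD80 on chow, and 8.74 in BXD48, 9.65 and 10.56 in BXD101 on high fat. Eif2ak2, which encodes the RNA-activated kinase PKR that stops translation, had an ICC of 0.75 (adjusted p = 7.4e-07), with 8.37 in BXD50, 8.75 and 9.22 in BXD80 on chow, and 8.26 in BXD44, 8.73 and 9.40 in BXD49 on high fat. The widest step between neighbours in the order of strain means was 0.11 units for Ifih1. For Eif2ak2 it was 0.207 units, with 36 strains below it and 3 above, and the sides did not overlap on high fat (up to 9.02 below and from 9.26 above) but met at 9.11 on chow. Oasl2, an OAS-like protein, had an ICC of 0.72 (adjusted p = 4.6e-07), with 9.35 in BXD63, 10.002 and 10.92 in BXD80 on chow, and 9.30 in BXD63, 10.15 and 11.08 in BXD101 on high fat. BXD63 was the lowest Oasl2 strain on both diets.

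By role, the transcription factors Irf7 (ICC 0.64), Irf9 (0.53) and Stat2 (0.52) were strain-fixed, whereas Irf1 (0.32, adjusted p = 0.097) did not pass the F test. In the system that attaches and removes the ubiquitin-like protein ISG15, the protease gene Usp18 (0.70) was strain-fixed, and Isg15 itself (0.18) and the conjugating enzyme gene Ube2l6 (0.17) did not pass. Oas2 (0.67), an RNA-activated 2'-5' oligoadenylate synthetase gene, and Oasl2 were strain-fixed, Oasl1 passed the F test at an ICC of 0.38, and Oas3 (0.015) did not pass. Among the IFIT genes, whose proteins bind viral RNA, Ifit1 (0.66) and Ifit2 (0.57) were strain-fixed and Ifit3 had an ICC of -0.022. The RNA sensors Ddx58 (0.35), which encodes RIG-I, and Dhx58 (0.34), which encodes LGP2, did not pass, and the Z-nucleic acid sensor Zbp1 (0.35) passed with an adjusted p of 0.037.

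Of the other antiviral genes, Rsad2 (0.65), encoding viperin, Rtp4 (0.63) and Bst2 (0.53), encoding the virion tether tetherin, were strain-fixed along with Xaf1. Mx1 (-0.14) and Mx2 (0.19) did not pass the F test. Mx1 encodes an antiviral GTPase of which most laboratory strains carry a defective copy. The ADP-ribosyltransferase gene Parp14 (0.65) was strain-fixed and its relative Parp9 (0.41) passed the F test only. The interferon gamma inducible GTPase genes Igtp (0.64) and Gbp3 (0.58) were strain-fixed, and Irgm1 had an ICC of 0.42 with an adjusted p of 0.010. Among the antigen processing genes, the peptide transporter gene Tap1 (0.72) and the immunoproteasome gene Psmb9 (0.67) were strain-fixed. The immunoproteasome gene Psmb8 (0.38) and the chemokine gene Cxcl10 (0.39) passed the F test only.

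**Figure D1:**
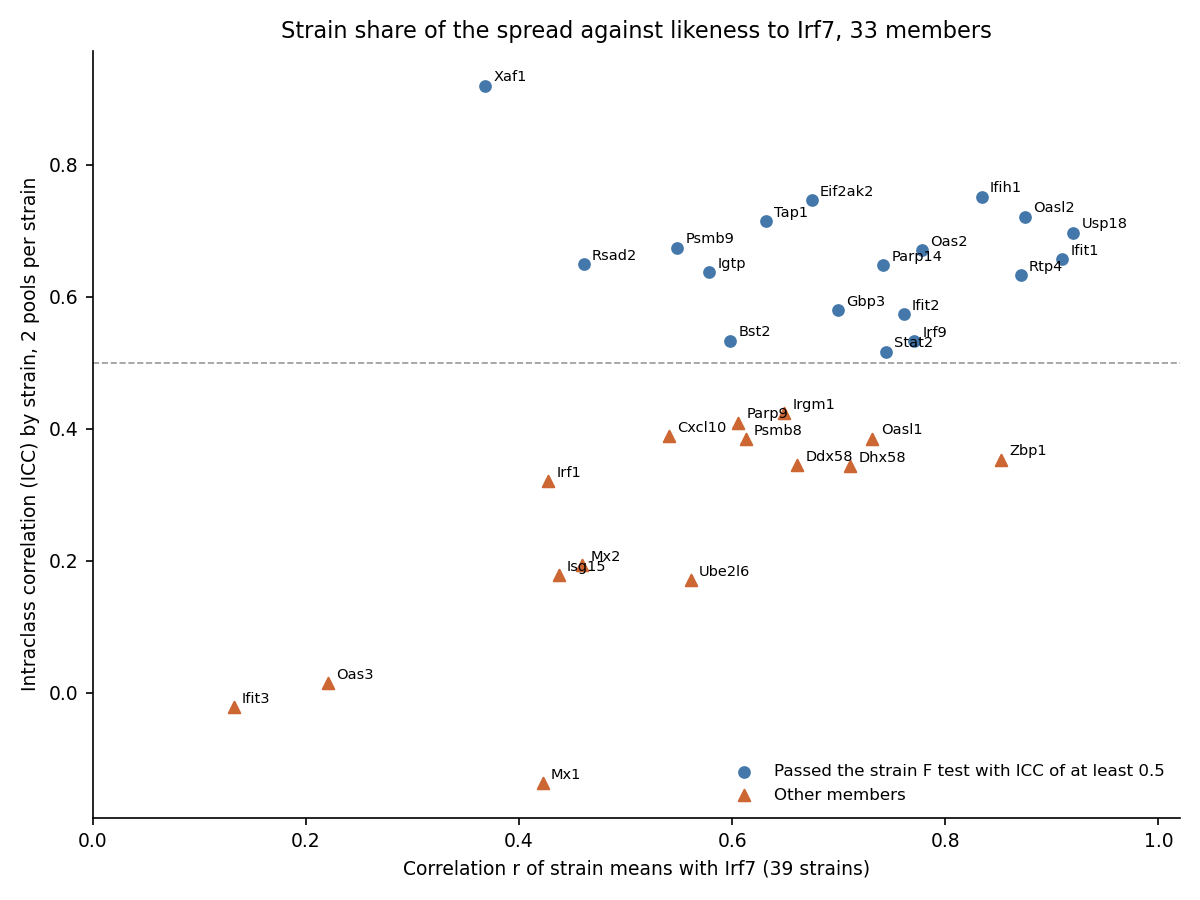
Intraclass correlation by strain (vertical axis, 2 pools per strain) against the correlation of strain means with Irf7 (horizontal axis, 39 strains) for 33 members, with circles for strain-fixed members and triangles for the others. Xaf1 stands alone at an ICC of 0.92 and a correlation of 0.37, while Usp18, Ifit1, Oasl2, Rtp4 and Ifih1 combine an ICC above 0.6 with correlations above 0.8.

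The parents were compared with 2 arrays for each. The contrast of DBA/2J against C57BL/6J passed for 1 of the 34 members (2.94%), close to the 2.36% of all genes, and some differences larger than any between the diets did not pass. That member was Xaf1, which was 1.54 ± 0.19 (SE) units higher in DBA/2J (adjusted p = 1.7e-07, limma). Rsad2 was 0.89 ± 0.27 (SE) units lower in DBA/2J, at 9.44 on chow and 9.05 on high fat against 9.95 and 10.33 in C57BL/6J, with an adjusted p of 0.066. Under quantile normalization that difference was -0.93 with an adjusted p of 0.047, and when only genes above the median level were tested it was -0.89 with an adjusted p of 0.039. The differences of DBA/2J minus C57BL/6J in Bst2 (-0.53), Cxcl10 (-0.53) and Oasl2 (-0.48) did not pass. For Irf7 the parents' means were 9.38 in C57BL/6J and 9.12 in DBA/2J, while the strain means ran from 8.35 in BXD63 to 10.08 in BXD101. Strains beyond both parents numbered 27 of 39 for Irf7, 13 above and 14 below. For Xaf1 12 strains lay above DBA/2J and none below C57BL/6J.

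A few strains held the extremes. Among the 39 paired strains BXD80 was the highest for 22 of the 34 members on chow and for 9 on high fat, and it was among the 5 highest on both diets for 22 members. BXD63 was the lowest for 8 members on each diet. How often these strains were extreme over all genes was not counted, so these counts cannot be set against the array as a whole. The widest case was Igtp, which encodes a GTPase that acts on vacuoles holding intracellular pathogens. Its strain mean was 13.05 in BXD80 and 12.07 in BXD103, against a median of 9.85 and a lowest value of 8.95 in BXD63. When BXD80 was left out, the F test was lost for Irgm1 (adjusted p = 0.17), Parp9 (0.13), Psmb8 (0.24), Zbp1 (0.17) and Cxcl10 (0.063), none of which was strain-fixed, and 20 members passed (14.7% of all genes). BXD80 also had the highest mean level of 8 T and NK cell markers on both diets (7.87 on chow and 7.70 on high fat, with lowest strain values of 7.02 and 7.03), and the part of these cells in its levels was not tested.

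**Figure D2:**
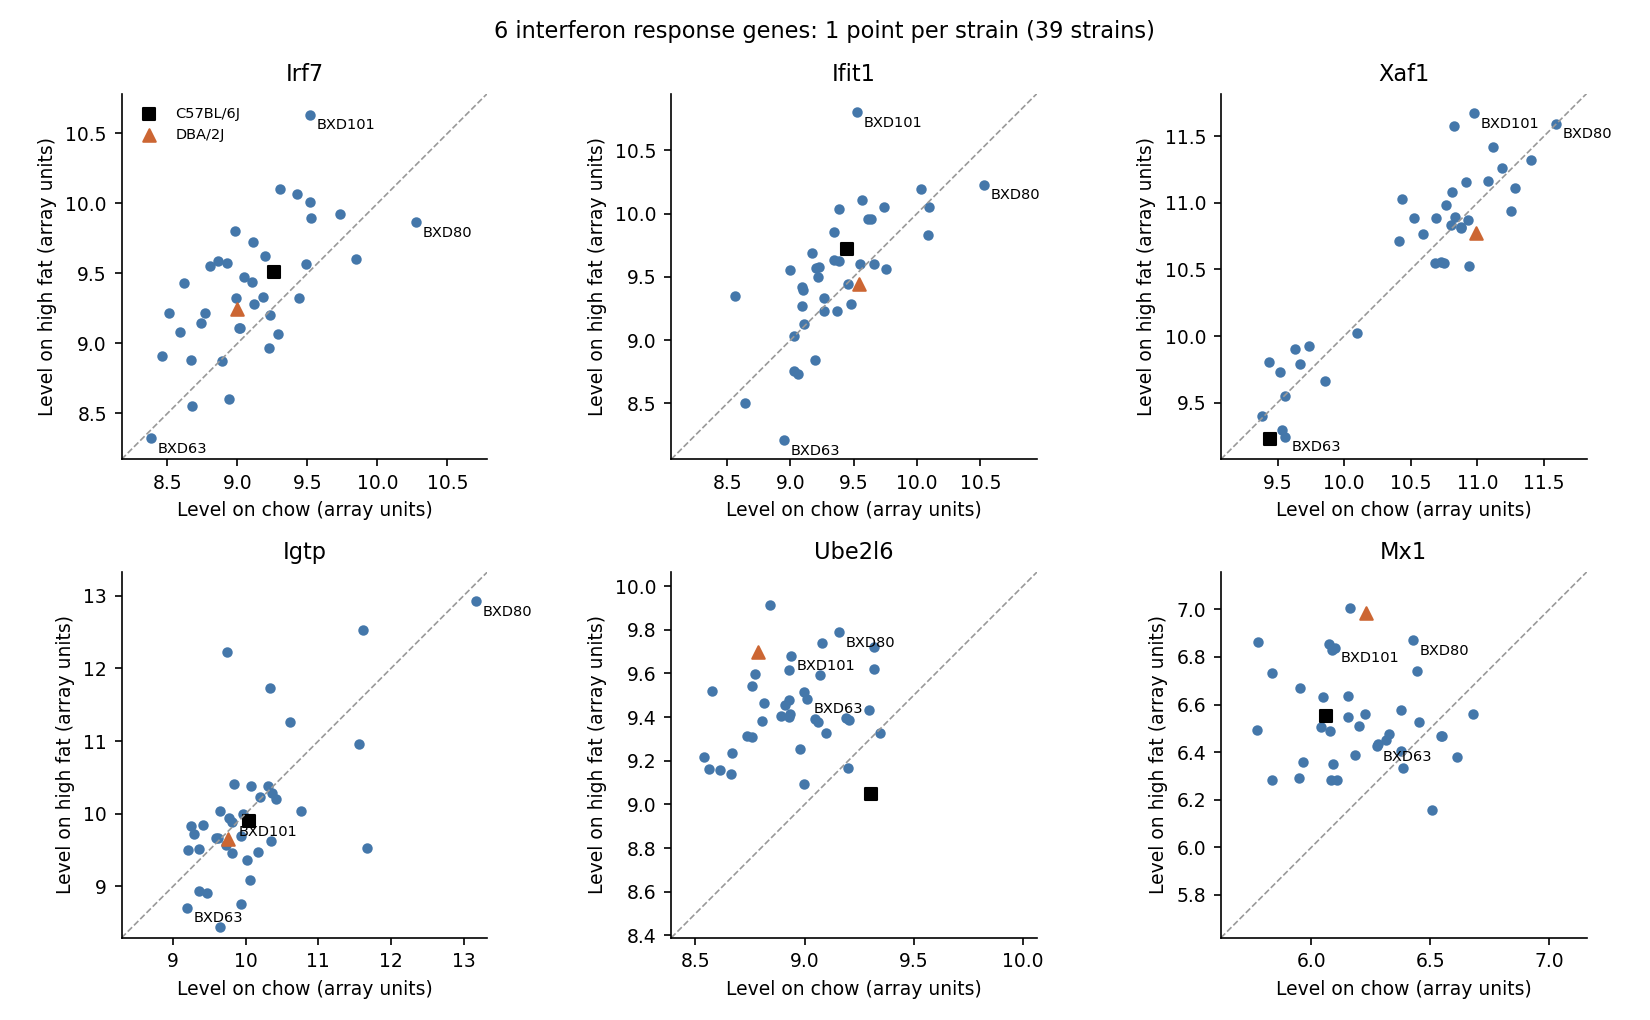
Level on high fat (vertical) against level on chow (horizontal), both in array units, for 6 members, with 1 point for each of 39 strains, a square for C57BL/6J, a triangle for DBA/2J and a dashed line of equality. Xaf1 points form a low set below about 10.1 and a high set above 10.4 on both axes, Igtp has BXD80 far above the rest, and Ube2l6 lies above the line in 36 strains and Mx1 in 33.

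Co-movement was first asked for between the 2 pools of a strain. The model held strain and diet terms, so its slope on Irf7 rests on whether the high fat and chow pool of a strain differed more or less than the average strain. Irf7 itself ranged on chow from 8.38 in BXD63 over a median of 9.03 to 10.28 in BXD80, and on high fat from 8.32 in BXD63 over 9.33 to 10.64 in BXD101. The difference between the diets ran from -0.41 in BXD80 to 1.11 in BXD101, with a median of 0.33. Of 33 members 1 passed (3.03%), against 0.00451% of 22179 genes, and it was the only gene of the array to pass. It was Ifit1.

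Ifit1 encodes a protein that binds viral RNA lacking the host cap modification, and its promoter above carries 2 matches to the ISRE core. On chow its lowest, median and highest values were 8.56 in BXD71, 9.34 and 10.53 in BXD80, and on high fat 8.21 in BXD63, 9.56 and 10.80 in BXD101. It changed by 0.70 ± 0.12 (SE) units for each unit of Irf7 within strains (adjusted p = 0.011, limma). The correlation of the differences between diets was r = 0.69 and rho = 0.64 over 39 strains, with a permutation p of 1e-05 for r, the smallest that 100000 permutations can give, and 2e-05 for rho (two-sided). Without BXD101 and BXD80, the strains farthest from the median Irf7 difference, r was 0.61 and the slope 0.59, with an adjusted p of 0.19. Leaving out BXD101 alone gave an adjusted p of 0.073.

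Usp18, whose protein removes ISG15 and dampens the type I receptor, came next with a slope of 0.57 ± 0.12 (SE), r = 0.61 and an adjusted p of 0.068. Its values ran from 8.58 over a median of 9.19 to 10.35 on chow and from 8.22 over 9.39 to 10.64 on high fat. At an unadjusted p under 0.05 there were 15 of 33 members and 1557 of 22179 genes. The median slope was 0.24 over the members and 0.027 over all genes. Isg15 (slope -0.019 ± 0.13, SE), Ifit3 (-0.0016 ± 0.16) and Dhx58 (-0.042 ± 0.11) had slopes within their error of 0. The promoters of Isg15 and Ifit3 carry ISRE matches, as that of Ifit1 does. The probe sets of Isg15 and Dhx58 lay below the median gene, with mean levels of 6.53 and 7.93. Strain means of Ifit3 correlated with those of Ifit1 at r = 0.09. How well these probe sets read their genes was not tested. Of the 19 strain-fixed members, Irf7 was the anchor and could not be tested for co-movement, and only Ifit1 passed that test. The other strain-fixed members did not pass it, and 15 members were neither strain-fixed nor called as co-moving. A member that missed the threshold may still move with Irf7.

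With Oasl2 in place of Irf7 as the anchor within strains, a choice of anchor tried as an alternative, Ifit1, Usp18 and Xaf1 passed, with adjusted p of 0.026, 0.047 and 0.047 (limma), against 0.0406% of all genes. Usp18 as the anchor called Ifit1 (0.0135% of all genes), and Ifit1 as the anchor called Irf7, Oasl2, Rsad2, Usp18 and Xaf1 (0.0361%).

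Outside the members, the 10 genes with the highest within-strain correlation with Irf7 were Lgals3bp (r = 0.65), Krt26, Zic1, Irf4, Olfr827, Nipsnap3b, Mir3102, Il13ra1, Ly6e and Ccl12 (0.55), and none passed the adjusted threshold. Lgals3bp, which encodes a secreted interferon-induced glycoprotein, and Ly6e were the only ones of these 10 that also rose with Irf7 across strains on either diet. Krt26, Zic1, Irf4, Olfr827, Mir3102 and Ccl12 lay below the median gene level.

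Across strains the members moved together far more broadly. On chow 21 of 33 members rose with Irf7 (63.6%), against 0.491% of all genes, and on high fat 15 of 33 (45.5%), against 0.212%. No member fell with Irf7 on either diet. Both diets called 13 members: Irf9, Stat2, Usp18, Oas2, Oasl2, Ifit1, Ifit2, Ifih1, Zbp1, Eif2ak2, Rtp4, Parp14 and Gbp3. Ifit1 had slopes of 0.79 ± 0.09 (SE) on chow and 0.98 ± 0.08 on high fat, and Usp18 had 0.82 ± 0.08 and 0.93 ± 0.08 (adjusted p from 7.0e-08 to 4.4e-12, limma). Rtp4, a chaperone-like gene of the interferon response, had slopes of 0.63 ± 0.07 and 0.62 ± 0.08. Called on chow only were Oasl1, Ddx58, Dhx58, Igtp, Irgm1, Tap1, Psmb8 and Psmb9, and called on high fat only were Bst2 and Parp9. Whether these slopes across strains differed between the diets was not tested. In a model with strain terms, an interaction of Irf7 and diet passed for 0 of 33 members and 0% of all genes (limma). There 5 members and 1522 genes had an unadjusted p under 0.05.

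The chow calls leaned on a single strain. Without BXD80, 12 of 33 members rose with Irf7 on chow (0.104% of all genes), and 14 on high fat (0.185%). The 12 were Irf9, Stat2, Usp18, Oas2, Oasl1, Oasl2, Ifit1, Ifih1, Dhx58, Zbp1, Irgm1 and Rtp4. Leaving out any other strain gave 19 to 21 members on chow, and leaving out each strain in turn gave 12 (without BXD101) to 15 on high fat.

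Because the pools of a strain hold different animals, Irf7 in one pool was also set against the members in the other. Irf7 of the chow pool went with 15 of 33 members in the high fat pools of the same strains (45.5%), against 0.203% of all genes. These were Irf9, Stat2, Usp18, Oas2, Oasl2, Ifit1, Ifit2, Ifih1, Zbp1, Eif2ak2, Bst2, Rtp4, Parp14, Gbp3 and Tap1. The correlations were 0.73 for Oasl2, 0.72 for Usp18, 0.71 for Zbp1 and 0.66 for Ifit1 over 39 strains. In the reverse direction Irf7 of the high fat pool went with 1 member in the chow pools, Ifih1 (r = 0.70), against 0.00451% of all genes. At an unadjusted p under 0.05 the reverse direction held 21 of 33 members and 1071 of 22179 genes. The first direction held 30 members and 1376 genes at that p. The difference between directions was not tested. BXD80 had the highest Irf7 on chow (10.28, with 9.85 in BXD56 next). Neither direction is given without BXD80, so the part of that strain in these counts is not known. Xaf1, the most strain-fixed member, passed in neither direction (r = 0.36 and 0.23).

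Of the 36 genes that rose with Irf7 on both diets, 13 were members and 11 were other listed pathway genes (Cmpk2, Ddx60, Gbp7, Herc6, Ifi27, Iigp1, Lgals3bp, Lgals9, Parp12, Phf11d and Sp100). These 36 were 33% of the chow calls and 76.6% of the high fat calls. The remaining 12, on no fixed list here, were Csprs, Gm12250, Gm4951, Ifi204, Ly6e, Ly86, Ms4a6b, Oas1b, Oas1g, Pld4, Siglec1 and Themis2. Of 10 macrophage markers 1 rose with Irf7 on chow and 0 on high fat, and their mean level, which ranged from 9.12 to 9.90 on chow and from 9.13 to 10.11 on high fat, correlated with Irf7 at r = 0.58 on chow and 0.46 on high fat. With the macrophage mean in the model 9 members rose with Irf7 on chow (0.0631% of all genes) and 10 on high fat (0.122%). Usp18, Ifit1, Oasl2, Oas2, Ifih1 and Rtp4 were called in both. None of the 190 control probe sets of the array rose with Irf7 on either diet.

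**Figure D3:**
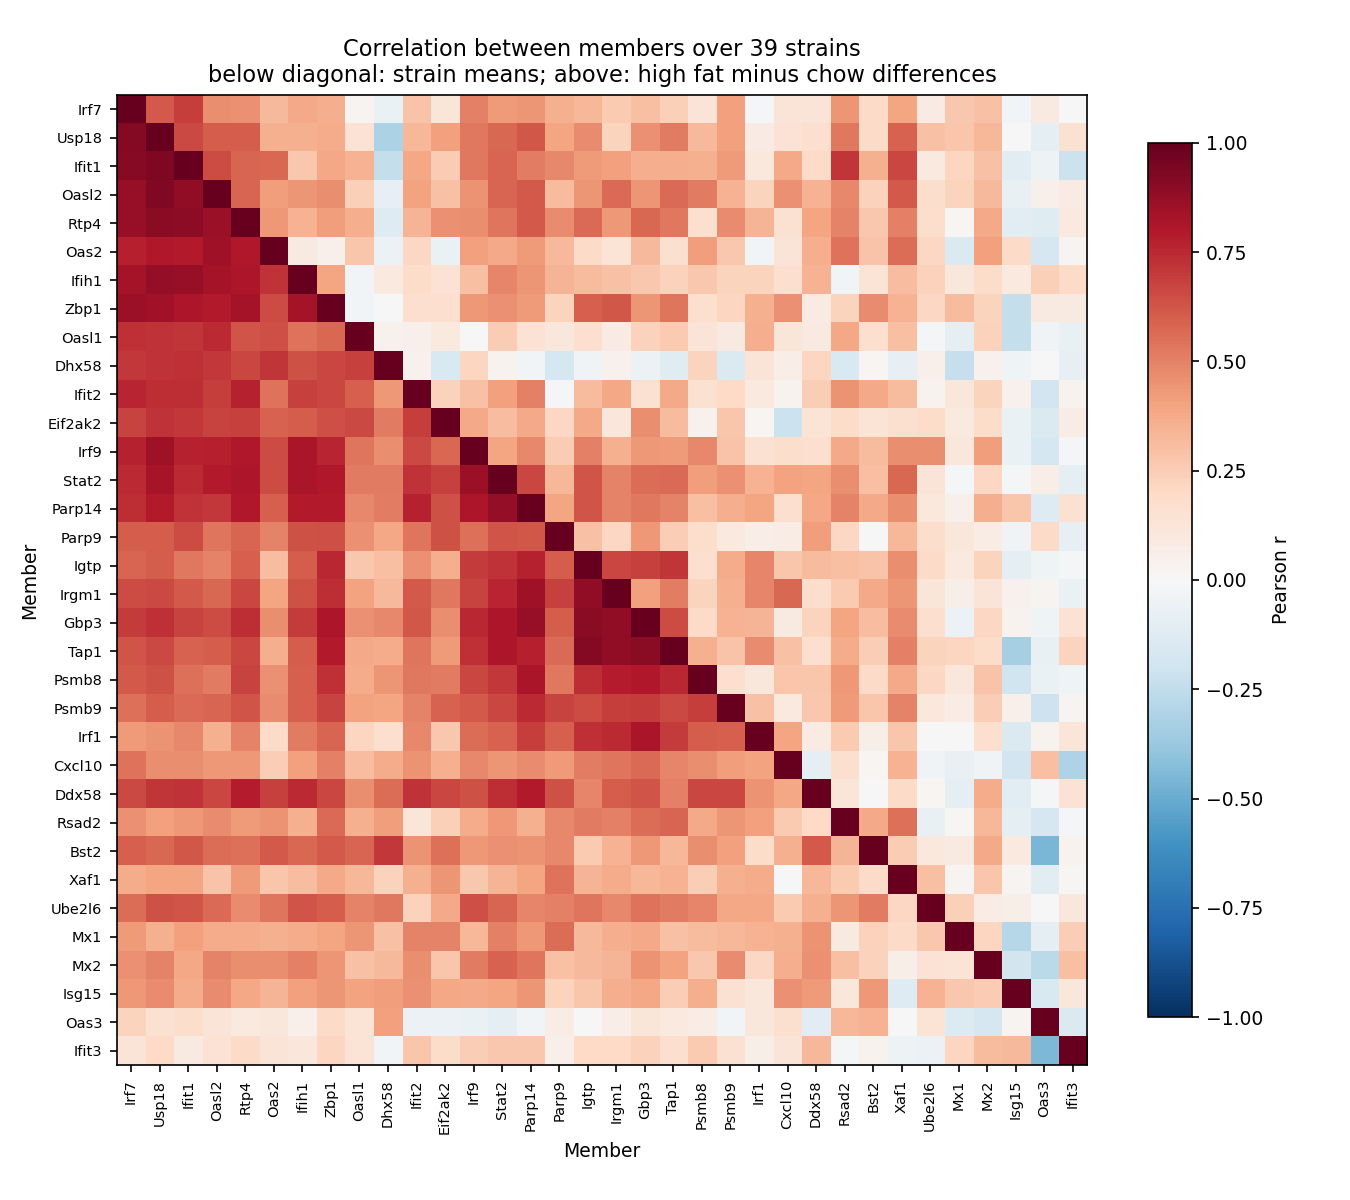
Pearson correlation between each pair of 34 members over 39 strains, for strain means below the diagonal and for the high fat minus chow differences above it. The Irf7, Usp18, Ifit1, Oasl2, Rtp4, Oas2 and Ifih1 corner and the Igtp, Irgm1, Gbp3 and Tap1 corner are the darkest areas below the diagonal, and Isg15, Oas3 and Ifit3 form pale rows.

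Within the members there were 2 blocks of strain means, chosen after their correlations were seen and described without a test. The first held Irf7, Usp18, Ifit1, Oasl2, Rtp4, Oas2 and Ifih1, with pairwise r from 0.73 to 0.93 and a median of 0.87 over 39 strains. The second held Igtp, Irgm1 and Gbp3, the interferon gamma inducible GTPase genes, and Tap1, with r from 0.88 to 0.92. Without BXD80 the second block had r from 0.81 to 0.87. Between the blocks r ran from 0.31 to 0.74 with a median of 0.61, and over all 561 pairs the median was 0.50. The highest r between the blocks thus exceeded the lowest within the first. Members outside the blocks went with both. Parp14 had r = 0.80 with Usp18 and 0.87 with Gbp3, Stat2 0.83 with Usp18 and 0.81 with Gbp3, and Zbp1 0.85 with Irf7 and 0.81 with Gbp3. The blocks are therefore not separate sets. Strain means share arrays and scaling, so these values describe likeness only. The lowest pair of all was Oas3 with Ifit3 at -0.45.

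Irf7 and Igtp were also entered together as terms of a model across strains. Igtp and the blocks were picked from the same strains, so the counts restate that choice in part and are given as a description. On chow Irf7 had a positive slope in 7 of 32 members (0.0676% of all genes), namely Usp18, Oas2, Oasl2, Ifit1, Ifih1, Dhx58 and Rtp4. On high fat it did so in 9 (0.0857%), namely Irf9, Usp18, Oas2, Oasl2, Ifit1, Ifit2, Ifih1, Zbp1 and Rtp4. Igtp had a positive slope in 3 members on chow (0.0812%), Gbp3, Irgm1 and Tap1, and in 6 on high fat (0.126%), Gbp3, Irgm1, Tap1, Irf1, Parp14 and Zbp1. For Tap1 the high fat slope was 0.35 ± 0.04 (SE) on Igtp and 0.073 ± 0.08 on Irf7. For Ifit1 it was 0.94 ± 0.09 on Irf7 and 0.044 ± 0.04 on Igtp. Zbp1 on high fat was the only member called for both.

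Without BXD80 the Irf7 slope held in 6 members on chow (0.0496%) and 9 on high fat (0.0857%). The Igtp slope then held in 2 members on chow (0.0586%), Gbp3 and Tap1, and in 5 on high fat (0.0902%), Gbp3, Irgm1, Tap1, Irf1 and Parp14.

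**Figure D4:**
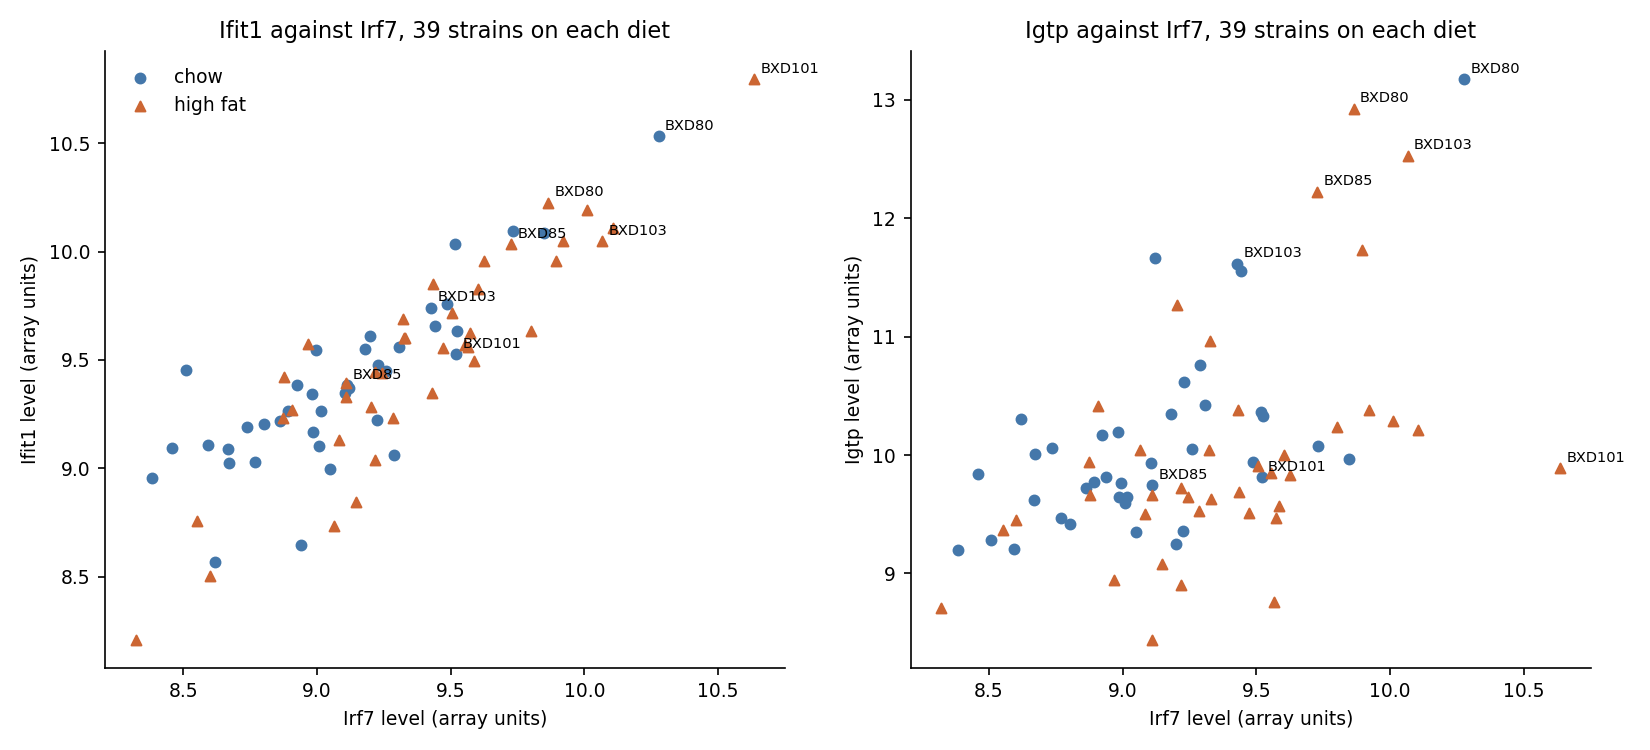
Level of Ifit1 (left) and Igtp (right) against Irf7, all in array units, with 1 point for each of 39 strains on chow (circles) and on high fat (triangles). Ifit1 rises along with Irf7 over the whole range, whereas Igtp stays near 10 in most pools and reaches 12.2 to 13.2 in both pools of BXD80 and in the high fat pools of BXD103 and BXD85. BXD101 has the highest Irf7 (10.64 on high fat) with Igtp near 9.9.

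The Igtp block also moved together between the pools of a strain. With Igtp as the anchor in place of Irf7, a choice made after the values were seen, 6 of 33 members passed within strains, against 0.0947% of all genes. They were Tap1 (0.27 ± 0.04 units for each unit of Igtp, SE, adjusted p = 7.0e-04, limma), Gbp3 (0.34 ± 0.06, adjusted p = 0.0018), Irgm1 (0.40 ± 0.07, adjusted p = 0.0018), Stat2, Zbp1 and Parp14. The Igtp difference between diets ran from -2.14 in BXD99 over a median of -0.077 to 2.48 in BXD85, where Igtp was 9.75 on chow and 12.22 on high fat. In BXD85 the difference was also the highest of 39 strains for Gbp3 (1.11), Irgm1 (1.36) and Tap1 (0.58), and in BXD99 it was the lowest of the strains for all 3 (-0.92, -0.88 and -0.76). Without BXD85 only Tap1 passed (adjusted p = 0.032), and leaving out each other strain in turn gave 3 to 6 members, always including Tap1, Gbp3 and Irgm1.

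High fat feeding was set against chow within the 39 strains. Of the 34 members 16 passed (47.1%), with 45.0% of all genes passing, so the share of members called was close to that of the array as a whole. Higher on high fat were 13 members (38.2%), against 23.8% of all genes, and lower were 3 (8.82%), against 21.2%. The median difference was 0.085 units over the members and 0.0053 over all genes. The array's 92 ERCC control probe sets, which read no mouse gene, passed in 37 cases (40.2%), with a 95th percentile of absolute difference of 0.25 units. Of the 16 called members 7 differed by more than that, namely Ube2l6, Mx1, Rtp4, Dhx58, Psmb8, Irf7 and Oas2, all higher on high fat. The share of all genes beyond that value was not counted, so these 7 cannot be set against the array as a whole. Neither labels nor files state whether the chow and high fat arrays were processed together.

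Ube2l6, the ISG15 conjugating enzyme gene, had the largest diet difference among the members. On chow its lowest, median and highest values were 8.40 in BXD79, 8.94 and 9.35 in BXD90, and on high fat 9.05 in C57BL/6J, 9.40 and 9.91 in BXD62. The groups overlapped, and the level was higher on high fat in 36 of 39 strains. The difference was 0.48 ± 0.04 (SE) units (8.95 ± 0.23 on chow and 9.43 ± 0.20 on high fat, SD, n = 39, adjusted p = 5.1e-12, limma). C57BL/6J ran the other way, with a difference of -0.26 units, the lowest of the 39.

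Mx1 was next. Its values were 5.77 in BXD90, 6.17 and 6.68 in BXD99 on chow, and 6.16 in BXD98, 6.5 and 7.01 in BXD81 on high fat. The groups overlapped here too, and 33 of 39 strains were higher on high fat, by 0.35 ± 0.05 (SE) units on average (adjusted p = 5.0e-07, limma). The probe set of Mx1 lay below the median gene on average. Both genes with the largest diet differences had strain ICC values under 0.2.

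The remaining calls followed by role. Irf7 was 0.29 ± 0.06 (SE) units higher on high fat, in 29 of 39 strains, while Irf9 (-0.019), Irf1 (-0.051) and Stat2 (0.043) did not pass. Usp18 was 0.15 ± 0.05 higher and Isg15 (0.048) did not pass. In the OAS family Oas2 was 0.29 ± 0.06 higher, in 30 strains, and Oas3, Oasl1 and Oasl2 did not pass (-0.012, -0.11 and 0.10). Ifit2 was 0.20 ± 0.05 higher and Ifit1 0.14 ± 0.06 higher with an adjusted p of 0.040, which was lost in 17 of the 39 fits that left out 1 strain (adjusted p up to 0.072). Ifit3 (0.084) did not pass.

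Of the RNA sensors, Dhx58 was 0.30 ± 0.04 (SE) units higher in 34 strains and Ddx58 0.087 ± 0.03 higher with an adjusted p of 0.033, whereas Ifih1 (-0.031), Zbp1 (0.088) and Eif2ak2 (-0.039) did not pass. Rtp4 was 0.33 ± 0.05 higher in 35 strains, and the tetherin gene Bst2 was 0.15 ± 0.04 lower, being higher on high fat in only 9 strains. Mx2 (0.097), Rsad2 (0.10) and Xaf1 (0.067) did not pass. Parp14 was 0.14 ± 0.03 higher and Parp9 (0.066) did not pass. None of the 3 GTPase genes Gbp3 (-0.0013), Igtp (-0.071) and Irgm1 (0.0081) passed. The antigen processing genes split: Psmb8 rose by 0.30 ± 0.04 in 35 strains and Psmb9 by 0.097 ± 0.03, while Tap1 fell by 0.15, being higher on high fat in 10 strains. The chemokine gene Cxcl10 fell by 0.15 (adjusted p = 0.021).

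**Figure D5:**
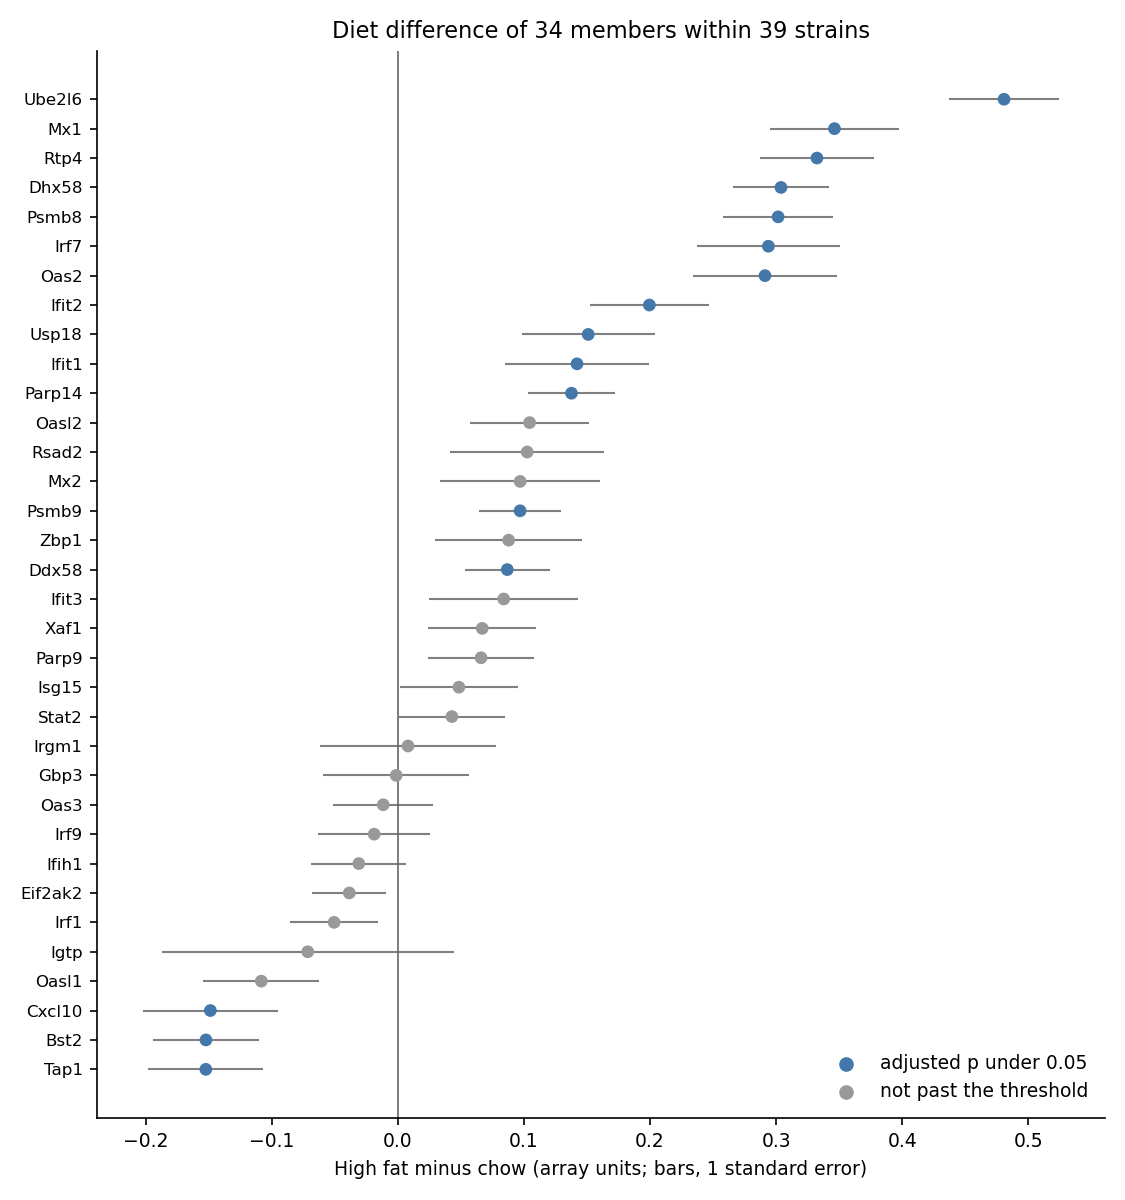
High fat minus chow difference of 34 members within 39 strains in array units, with bars of 1 standard error and filled blue points for an adjusted p under 0.05. Ube2l6 lies highest at 0.48 and 13 members pass on the positive side, while Tap1, Bst2 and Cxcl10 pass on the negative side near -0.15.

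The diet difference was also fitted with the Irf7 level or cell markers beside it. With Irf7 as a covariate 10 of 33 members passed, 6 higher and 4 lower (32.4% of all genes), and the differences of Usp18 and Ifit1 were -0.015 and -0.063, neither past the threshold. With the mean of the macrophage markers as a covariate 12 of 34 members passed, 9 higher and 3 lower (32.1% of all genes). Of the 10 macrophage markers 5 were themselves higher on high fat (Cd68, Itgam, Mrc1, Ccr2 and Fcgr1) and 0 lower, and of 5 neutrophil markers 4 were higher and 0 lower. The 5 neutrophil probe sets all lay below the median gene, with mean levels from 5.78 (Ly6g) to 8.13 (Cxcr2). The differences of Ly6g (0.21) and Cxcr2 (0.19) lay within the 95th percentile of the ERCC controls, 0.25 units. Those of S100a8 (0.35) and Retnlg (0.26) lay beyond it. Of 8 T and NK cell markers 2 were higher and 3 lower, of 6 plasmacytoid dendritic cell markers 2 and 4, of 4 B cell markers 0 and 2, of 7 cardiomyocyte markers 0 and 3, of 5 endothelial markers 2 and 1, and of 4 fibroblast markers 2 and 0. Over all genes 23.8% were higher and 21.2% lower. The part of these cells in the diet differences was not tested further.

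The rest of the pathway was read from fixed lists of 89 genes. Of 15 interferon genes 0 passed the strain F test and 0 rose with Irf7 on either diet. Higher on high fat were 3 of the 15, against 23.8% of all genes: Ifna13 (0.29 units, 34 strains), Ifna2 (0.19) and Ifna4 (0.12). Ifna13 and Ifna2 had mean levels of 5.72 and 6.19, below the median gene at 8.18, and the differences of Ifna2 and Ifna4 lay within the 95th percentile of the ERCC controls. Of 9 receptor and kinase genes 0 rose with Irf7. The type I receptor gene Ifnar2 was higher on high fat (0.11 units, 34 of 39 strains), Il10rb (-0.16) and Ifnlr1 (-0.19) were lower, and Jak2, Il10rb and Ifnar2 passed the strain F test. Of 10 sensing adaptors and upstream factors 4 were higher on high fat and 1 lower, a share close to the 45.0% of all genes called, with Irf3 (0.23), a factor that starts interferon transcription, and the RNA sensor gene Tlr7 (0.28) higher and the adaptor gene Ticam1 (-0.19) lower. Of 6 STAT and negative regulator genes Ptpn6 (0.29) and Stat3 (0.069) were higher and Socs1 (-0.12) and Socs3 (-0.10) lower, and 0 rose with Irf7.

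Of 29 other type I induced genes 13 rose with Irf7 across strains on chow and 11 on high fat, and 14 passed the strain F test. Lgals3bp (slope 0.80 on chow and 0.55 on high fat), Cmpk2 (0.47 and 0.54), a nucleotide kinase gene next to Rsad2, and Ifi27 (0.69 on chow) were among them. The strain F test was strongest for Pnpt1 (ICC 0.78), Samhd1 (0.78) and Ifi27 (0.71). For comparison, 0.491% of all genes rose with Irf7 on chow, 0.212% on high fat, and 14.8% passed the F test. On high fat 16 of the 29 were higher and 3 lower, against 23.8% and 21.2% of all genes, and 40.2% of the ERCC controls passed in either direction. The higher genes were led by the membrane protein gene Ifitm1 (0.38 units, 38 of 39 strains), Phf11d (0.40) and the exonuclease gene Isg20 (0.33). Of 20 other interferon gamma induced genes 4 rose with Irf7 on chow and 2 on high fat, Gbp7 and Iigp1, and 11 passed the strain F test. These included B2m (ICC 0.89), the light chain of class I molecules, and the chemokine genes Cxcl9 (0.82) and Ccl5 (0.73). B2m (-0.56 units, adjusted p = 0.0019, limma) and Cxcl9 (-0.95, adjusted p = 0.045) were also lower in DBA/2J than in C57BL/6J. Diet called 3 of the 20 higher and 3 lower, a share below the 45.0% of all genes called in either direction. Ccl5 was 0.33 units higher, and Tapbp (-0.11), Psme1 (-0.15) and Gbp4 (-0.26, named after its value was seen) were lower.

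Markers of other cell types were read beside these results. Of 8 T and NK cell markers, 6 plasmacytoid dendritic cell markers, 4 B cell markers and 5 neutrophil markers the only one that rose with Irf7 on either diet was Bst2, which is itself a member and rose on high fat. The limit given above for Cox6a2 and Tcf4 holds here too. The mean of the T and NK cell markers correlated with Irf7 at r = 0.43 on chow and 0.14 on high fat. Values on this scale have no zero, so absence of a cell type cannot be read from them.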

How the data were processed

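Whole-heart RNA pools were hybridised to Affymetrix arrays, and Affymetrix Expression Console is named as a tool per the submitters' processing notes, with no version. The deposited values are scores per probe set that the authors had scaled to the same mean and standard deviation on every array; the log base and normalization are not stated by the labels or files. The design had assumed log2 values, and the same tests were run on the scores as deposited. Genes were read from probe sets with 1 symbol in the platform annotation. Of 41345 probe sets 190 were controls. Of the 34 measured members 34 matched RefSeq symbols.

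Models were fitted on 22180 genes with limma 3.58.1 in R 4.3.3, with strain as a block that pairs the chow and high fat arrays by strain label, and p-values were adjusted over all genes by Benjamini-Hochberg at a threshold of 0.05. The fits were tested on simulated data. The members and lists were chosen with earlier results of these data known. All members are named. Full values are given for the strain-fixed members with the 4 highest ICC values, the co-moving member and the 2 largest diet differences. Irf7, Usp18 and Igtp values were added after they were seen. Other genes are the 10 nearest Irf7 within strains and up to 3 for each list and comparison with the smallest adjusted p. Outside that rule, the genes that rose with Irf7 on both diets, predicted genes included, were named after their values were seen. The same holds for the cell markers and chromosome neighbours named in the text. Alternatives changed scaling, variance model, dim genes, probe sets, strains, covariates and anchor gene.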

Additional observations from a re-analysis of the deposited data

How the results depend on the processing

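Each strain had 1 pool for each diet, so pool error and animal spread cannot be separated, and dim probe sets limit what can be seen for Isg15 and Mx1. Leaving out each strain in turn gave 14 to 17 members by diet, 20 to 26 by strain and 0 to 2 with Irf7 within strains. It gave 0 members with a within-strain slope on Irf7 that differed between diets. Shares of all genes are not given for these ranges. With no replicate block of strain 10 members passed for diet, while 4834 of 22180 genes were higher and 4240 lower. That setting gave 27 members for Irf7, then taking in differences between strains. At an unadjusted p under 0.05 this Irf7 fit held 31 members and 1803 of 22179 genes. With Irf7 as a covariate 10 members passed for diet (32.4% of all genes), and Usp18 (-0.0152) and Ifit1 (-0.0633) turned sign. For movement with Irf7 within strains (1 member), array weights gave 2, Isg15 as anchor 0, Oasl2 as anchor 3 and leaving out the 2 strains with the farthest Irf7 differences 0. Across strains the count was 21 on chow alone and 15 on high fat alone. These alternatives were chosen after seeing the data: Irf7 of the chow pool against high fat pools gave 15, Irf7 beside Igtp 7 on chow and 9 on high fat, Ifit1 as anchor 5, Igtp as anchor 6, removal of BXD80 12 on chow and 14 on high fat, and the macrophage mean 9 and 10. The parent count of 1 became 2 with quantile normalization and with genes above the median level. Quantile normalization gave 12 members higher and 4 lower on high fat, beside 5092 and 4980 of all genes. The cause of these changes was not tested.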

Other observations

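The nearest measured genes to Xaf1 on its chromosome, by RefSeq order on GRCm38.p6, did not all share its pattern. Smtnl2, the third measured gene on one side, was set by strain (ICC 0.76) and ran opposite to Xaf1, with a correlation of strain means of -0.81 over 39 strains, and it was 0.73 units lower in DBA/2J than in C57BL/6J (a difference of -0.73, adjusted p = 0.016, limma). The nearer genes Fbxo39 and Tekt1 had ICC values of -0.026 and -0.028. Beside Rsad2, Rnf144a (ICC 0.53, r = 0.67 with Rsad2) and Cmpk2 (ICC 0.41, r = 0.54) passed the strain F test. These genes were named after their values were seen, and the correlations are descriptions of strain means.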
